A study of Rattus norvegicus with 9 samples.

Results

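The miR-132 and miR-212 cluster was followed through its 4 mature microRNAs (miRNAs), rno-miR-132-3p, rno-miR-132-5p, rno-miR-212-3p and rno-miR-212-5p, which are both arms of its 2 hairpins. They were picked by name from a count table of 762 mature rat miRNAs. All 4 had counts in each of the 9 libraries, and all 4 were among the 304 miRNAs abundant enough to test. The prefix rno is left out from here on.

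The libraries hold small RNA of rat aortic vascular smooth muscle cells in culture, in 3 groups of 3 libraries. H3K4me2-edited cells had received, by lentivirus, an expressed sequence named Myocardin-F-LSD1. Myocardin works with serum response factor to switch on contractile genes, and LSD1 removes methyl groups from lysine 4 of histone H3. PDGF-BB cells were given platelet-derived growth factor BB, which makes smooth muscle cells divide and migrate, at 30 ng/ml for 24 h. Differentiated cells had no treatment, and the titles call both other groups de-differentiated. Starvation without serum for 24 h before treatment stands in the protocol of every sample, and whether untreated and transduced cells went through it is not stated. No library of cells with an empty virus was used here, which means that virus and cargo cannot be told apart in edited cells. Unstated by the labels, and not given in the sources used here, were the strain and age of the rats and the promoter of the construct. Nothing in the labels says that replicates came from separate cultures, and the p-values therefore cover the variation among these libraries, which could be technical.

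The hairpins of miR-132 and miR-212 lie next to each other and are processed from one primary transcript. In rat neurons that transcript is known as a target of CREB, a transcription factor that is phosphorylated when growth factors, calcium or cyclic AMP signal to the nucleus, and miR-132 is known there for its part in the growth of dendrites. In blood vessels miR-132 is known to rise with angiotensin II in rat smooth muscle cells and with angiogenic growth factors in human endothelium, where it represses the Ras inhibitor p120RasGAP. The activity of CREB and the targets of these miRNAs were not measured by the libraries described here.

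The mature sequences show which arms can pair with the same targets, since a miRNA finds its targets mainly through its seed, bases 2 to 8 from the 5′ end. They are given 5′ to 3′ from RefSeq (GRCr8), with the seed in capitals.
miR-132-3p: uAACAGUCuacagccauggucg
miR-212-3p: uAACAGUCuccagucacggcca
miR-132-5p: aCCGUGGCuuucgauuguuacu
miR-212-5p: aCCUUGGCucuagacugcuuacug

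Both 3p arms carry the seed AACAGUC, which no other rat miRNA of the RefSeq table has. Aligned from the 5′ end without gaps they are identical at 17 of 22 positions, and the 5 differences from miR-132-3p to miR-212-3p, counted from 1 at the 5′ end, are A10C, C14U, U17C, U20C and G22A, all outside the seed. The 5p arms differ within the seed, by G4U from miR-132-5p to miR-212-5p, and are identical at 14 of the first 22 positions. The treatment of reads that could belong to more than one miRNA was not given in the sources used here.

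In GRCr8 the arms lie on the plus strand of chromosome 10, miR-212-5p at chr10:60521771-60521794, miR-212-3p at chr10:60521811-60521832, miR-132-5p at chr10:60522055-60522076 and miR-132-3p at chr10:60522091-60522112. The submitters' processing notes name another build, Rnor_6.0, and the count table holds no coordinates. Between miR-212-3p and miR-132-5p lie 222 bases. In the RefSeq order of genes, the transcription repressor gene Hic1 comes before the pair, and a long non-coding RNA gene and Ovca2 come after it. The hairpin of miR-132 (chr10:60522033-60522133, plus strand) follows with the 5p arm, then the 3p arm, in capitals, because the levels of both arms are compared further on.
Mir132 hairpin: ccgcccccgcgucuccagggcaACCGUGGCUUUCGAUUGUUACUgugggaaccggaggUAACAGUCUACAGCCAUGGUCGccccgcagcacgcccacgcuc

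Library totals were 3149262, 11392178 and 7359735 counts in edited cells, 1982051 to 3568888 in PDGF-BB cells and 1783409 to 3850232 in differentiated cells. Levels are CPM (counts per 1000000 counts of a library) scaled by TMM factors, edgeR's correction for differences in library composition. The smooth muscle label was checked against 6 marker arms of miR-143, miR-145, miR-133a and miR-1. All had counts in each group, though miR-1-3p had 0 in edited replicate 3. They summed to between 37105 and 63115 CPM in edited, 133164 and 171193 CPM in PDGF-BB and 214839 and 251386 CPM in differentiated libraries. Most of this was miR-143-3p, with a mean of 45710 of 49252 CPM in edited, 148997 of 158509 CPM in PDGF-BB and 220236 of 234981 CPM in differentiated cells. The sum is thus mainly a check of that arm.

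miR-132-3p, the arm that carries most of the known functions of its hairpin, was the most abundant of the 4. It had 118, 36.9 and 38.3 CPM in edited libraries, 304, 294 and 279 CPM in PDGF-BB libraries, and 243, 146 and 169 CPM in differentiated libraries, from replicate 1 to replicate 3. The 3 groups did not overlap, with PDGF-BB libraries on top and edited libraries at the bottom. By count it ranked 127th to 179th in edited, 94th to 95th in PDGF-BB and 97th to 115th in differentiated libraries among the 762 miRNAs of the table, so it is a miRNA of middle abundance in these cells.

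miR-132-5p, the opposite arm of the same hairpin, had 14.9, 3.89 and 4.37 CPM in edited libraries, 49.2, 37.9 and 29.1 CPM in PDGF-BB libraries, and 33.8, 17.1 and 23.3 CPM in differentiated libraries. Edited libraries were again below all others, while the PDGF-BB and differentiated values overlapped.

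miR-212-3p, which shares the seed of miR-132-3p, had 5.81, 2.05 and 2.24 CPM in edited libraries, 16.6, 16.9 and 20.7 CPM in PDGF-BB libraries, and 9.27, 8.54 and 10.3 CPM in differentiated libraries. Its 3 groups did not overlap, in the same order as those of miR-132-3p. The 5p arm of that hairpin, miR-212-5p, had 3.87, 1.43 and 1.42 CPM in edited libraries, 10.5, 11.7 and 14.4 CPM in PDGF-BB libraries, and 12.6, 6.55 and 11.4 CPM in differentiated libraries. Edited libraries were below all others, and the PDGF-BB and differentiated values overlapped.

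**Figure D1:**
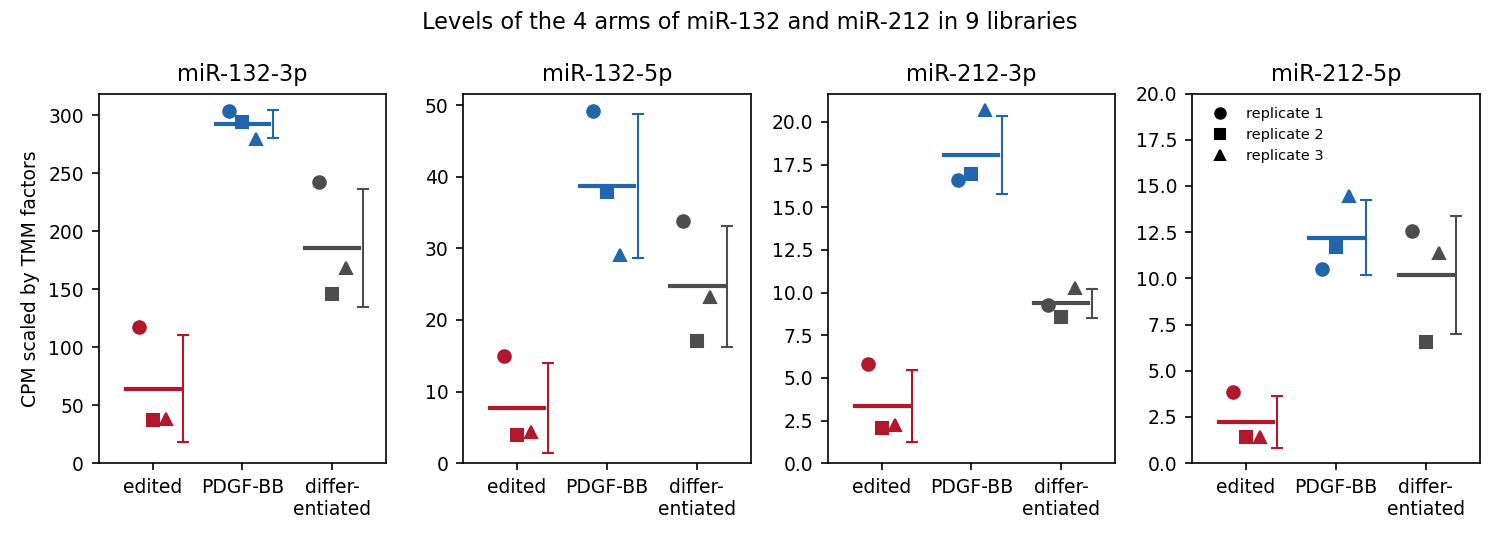
Level of each arm in the 9 libraries (vertical axis, CPM scaled by TMM factors, each panel with its own scale from 0) for edited, PDGF-BB and differentiated cells. Symbols mark replicates, horizontal lines the means and bars the SD (n = 3). In each panel the edited libraries lie lowest, with edited replicate 1 above edited replicates 2 and 3.

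The miR-212 arms rest on few counts. miR-212-5p had 14, 21 and 12 counts in edited, 19, 29 and 53 in PDGF-BB and 19, 23 and 21 in differentiated libraries. Its 21 counts in edited replicate 2 carry an exact Poisson 95% interval of 0.886 to 2.19 CPM, which covers counting error only. Both miR-212 arms were over the filter's cutoff of 3.18 CPM (by library total) in 1 edited, 3 PDGF-BB and 3 differentiated libraries, so the PDGF-BB or the differentiated group alone would have let them pass. The miR-132 arms were over it in all 9 libraries.

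The first comparison sets edited cells against differentiated cells, the question being how miRNAs differ in cells that carry the histone-editing construct. All 4 arms fell. miR-132-3p averaged 64.3 ± 46.2 CPM in edited and 186 ± 50.8 CPM in differentiated cells (SD, n = 3 each), a log2 fold change of -1.56 ± 0.41 (SE, edgeR quasi-likelihood adjusted p = 0.00930), or 2.95-fold lower. miR-132-5p averaged 7.73 ± 6.25 CPM in edited and 24.7 ± 8.43 CPM in differentiated cells, with a log2 fold change of -1.81 ± 0.51 (edgeR adjusted p = 0.0125). In both arms the edited libraries varied widely, with edited replicate 1 the highest of them.

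The miR-212 arms fell as well. miR-212-3p averaged 3.37 ± 2.12 CPM in edited and 9.36 ± 0.875 CPM in differentiated cells, with a log2 fold change of -1.64 ± 0.39 (edgeR adjusted p = 0.00523). miR-212-5p averaged 2.24 ± 1.41 CPM in edited and 10.2 ± 3.19 CPM in differentiated cells, a fall of 4.99-fold and a log2 fold change of -2.32 ± 0.43 (edgeR adjusted p = 0.00137).

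Lower calls made up 27.0% of the 304 tested miRNAs and calls in either direction 59.2%, so a fall in this comparison is common. Edited libraries lay below every differentiated library for 31.9% of tested miRNAs and for the 4 arms. The median log2 fold change of the arms was -1.73, beside -0.0064 over all tested miRNAs. From the largest fall upwards the arms ranked 10th (miR-212-5p), 19th (miR-132-5p), 22nd (miR-212-3p) and 23rd (miR-132-3p) of 304. With library totals in place of TMM factors the calls over all miRNAs were 151 higher and 40 lower in place of 98 and 82, the median of all moved to 0.44, and the arms still passed, at log2 fold changes of -1.12 for miR-132-3p, -1.36 for miR-132-5p, -1.19 for miR-212-3p and -1.86 for miR-212-5p.

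The call of miR-132-5p was lost without edited replicate 2 (-1.37, edgeR adjusted p = 0.0517), without edited replicate 3 (-1.49, 0.0520) or without differentiated replicate 1 (-1.46, 0.0567). Over its 9 fits that each leave out 1 library its edgeR adjusted p ran between 8.0e-05 and 0.0567. In bulk RNA of this kind, fewer cells that express a miRNA and less of it per cell cannot be told apart.

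The second comparison sets edited cells against PDGF-BB cells, which the titles both call de-differentiated. All 4 arms fell here too, each by more than 4-fold. The log2 fold changes were -2.22 ± 0.41 for miR-132-3p (edgeR adjusted p = 0.00140) and -2.48 ± 0.49 for miR-132-5p (0.00188). They were -2.62 ± 0.36 for miR-212-3p (edgeR adjusted p = 2.3e-04) and -2.66 ± 0.41 for miR-212-5p (4.5e-04). As folds these are 4.66, 5.59, 6.13 and 6.34 in the same order of arms. The PDGF-BB means behind them were 292 ± 12.2, 38.7 ± 10.1, 18.1 ± 2.28 and 12.2 ± 2.01 CPM (SD, n = 3), set against the edited means already given.

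Of all tested miRNAs 30.9% were called lower in this comparison and 58.9% in either direction, and edited libraries lay below every PDGF-BB library for 32.9% of them, as for the 4 arms. The arms had a median log2 fold change of -2.55, beside -0.022 over all tested miRNAs, and ranked 10th to 18th of 304 from the largest fall. The split over all miRNAs was 85 higher and 94 lower with TMM factors and 124 higher and 52 lower with library totals, which moved the median of all to 0.30. The arms kept their calls with library totals, at -1.92 for miR-132-3p to -2.35 for miR-212-5p, and in each of the 9 fits without 1 library.

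The third comparison asks what PDGF-BB does against differentiated cells. No arm passed the test, although 2 of the 4 had groups that did not overlap. miR-212-3p was nearest to the threshold, at 18.1 ± 2.28 CPM in PDGF-BB and 9.36 ± 0.875 CPM in differentiated cells, with a log2 fold change of 0.97 ± 0.35 (edgeR adjusted p = 0.131, unadjusted p = 0.0209). It was the 1 arm with an unadjusted p under 0.05. Its unadjusted 95% interval ran between 0.18 and 1.76 on the log2 scale.

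miR-132-3p, at 292 ± 12.2 CPM in PDGF-BB and 186 ± 50.8 CPM in differentiated cells, had a log2 fold change of 0.66 ± 0.40 (edgeR adjusted p = 0.336), with a 95% interval between -0.23 and 1.55. For miR-132-5p the log2 fold change was 0.67 ± 0.47 (edgeR adjusted p = 0.403) and for miR-212-5p 0.34 ± 0.39 (0.633). The intervals of these 3 arms include 0 and also rises of more than 1 on the log2 scale, so the test leaves their direction undecided.

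In this comparison 7.24% of tested miRNAs were called higher and 10.2% in either direction. PDGF-BB libraries lay above every differentiated library for 18.1% of tested miRNAs, and for miR-132-3p and miR-212-3p among the arms. The arms had a median log2 fold change of 0.67, beside 0.031 over all tested miRNAs. The split was 22 higher and 9 lower with TMM factors, 24 and 2 with library totals, where the median of all was 0.16, and 24 and 24 with DESeq2. No arm passed under library totals or DESeq2.

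For both 3p arms the outcome changed with the libraries in the fit. All 9 libraries share 1 estimate of the spread, and for each arm the edited libraries had the largest SD relative to their mean, though leaving out a library or group also alters the filter and the scaling. With the 6 compared libraries alone, miR-132-3p passed at a log2 fold change of 0.68 ± 0.19 (edgeR adjusted p = 0.0398) and miR-212-3p at 1.00 ± 0.22 (0.0134). In that fit 27 of the 275 tested miRNAs were called higher and 15 lower. Without edited replicate 1 these 3p arms passed at 0.63 ± 0.17 (edgeR adjusted p = 0.0308) and 0.95 ± 0.21 (0.0130), and the count over all miRNAs was 53 in place of 31. Without edited replicate 2 or 3 neither passed, with edgeR adjusted p of 0.315 and 0.279 for miR-132-3p and 0.105 and 0.131 for miR-212-3p. Which of these differences between the fits moved the calls was not tested. Over all settings and left-out libraries the edgeR or DESeq2 adjusted p ran between 0.0308 and 0.607 for miR-132-3p and between 0.0130 and 0.331 for miR-212-3p. The log2 fold change stayed above 0 in each of them for all 4 arms, and those of both 5p arms did not pass in any.

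**Figure D2:**
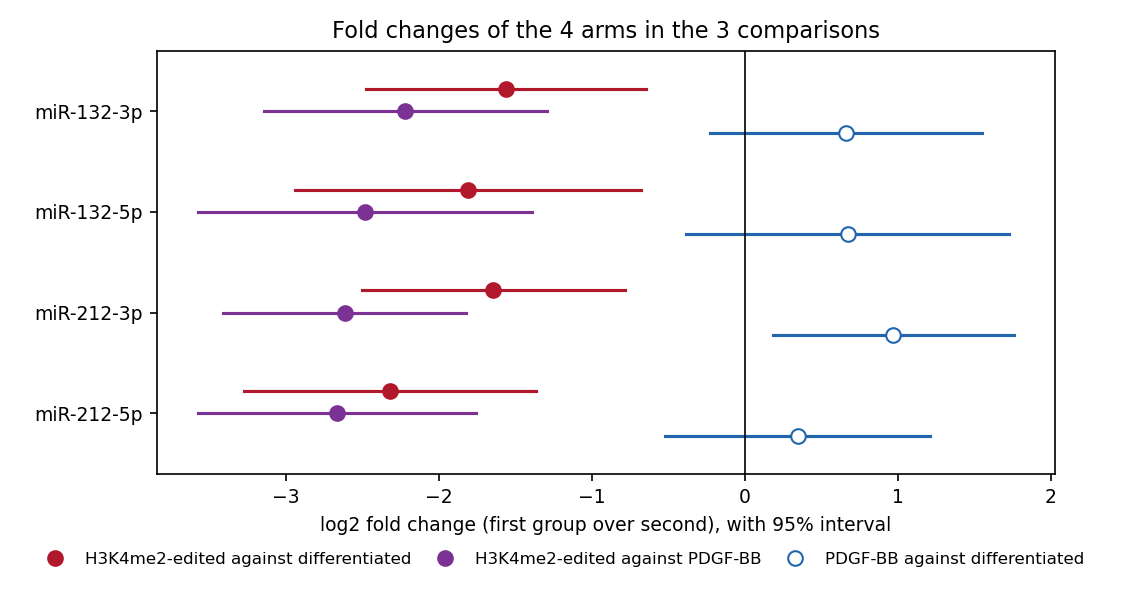
Log2 fold change (horizontal axis, first group over second) of each arm with its unadjusted 95% interval in the 3 comparisons. Filled points passed the edgeR test at an adjusted p of 0.05, and open points did not. The 8 values that involve edited cells lie left of 0, while 3 of the 4 intervals of PDGF-BB against differentiated cells include 0.

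**Figure D3:**
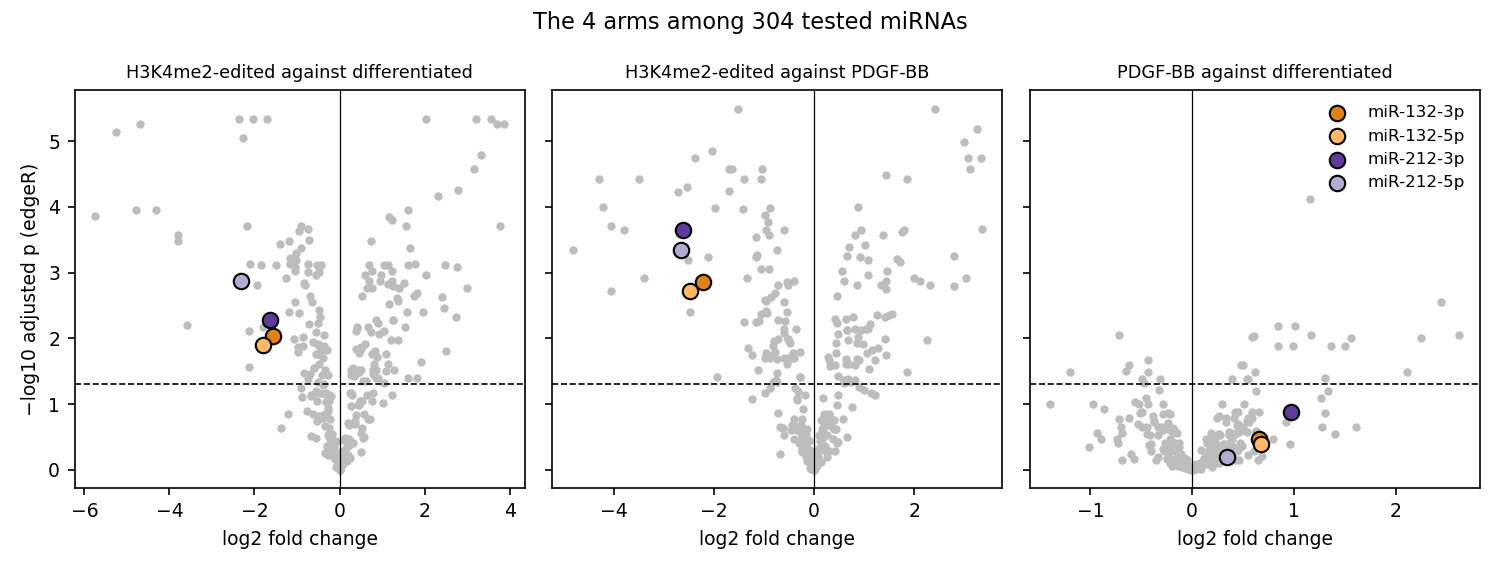
The 304 tested miRNAs in each comparison, by log2 fold change (horizontal axis) and −log10 of the edgeR adjusted p (vertical axis), with the 4 arms in colour and a dashed line at an adjusted p of 0.05. The arms sit among the larger falls in both panels with edited cells and below the line in the panel of PDGF-BB against differentiated cells.

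Edited replicate 1 stood apart for these miRNAs. Relative to the mean of edited replicates 2 and 3 it had 3.13 times the CPM of miR-132-3p, 3.62 times that of miR-132-5p, 2.71 times that of miR-212-3p and 2.72 times that of miR-212-5p. As log2 differences these were 1.64, 1.76, 1.28 and 1.21, the 8th, 5th, 14th and 17th highest of 304 tested miRNAs, where the median was 0.032 and 24 miRNAs exceeded 1. All 4 arms thus moved the same way in that library, each still below every PDGF-BB and differentiated library.

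Left out, that library changed the size of the falls and none of their calls. Without it the log2 fold changes of edited against differentiated cells were -2.27 ± 0.21 for miR-132-3p, -2.50 ± 0.32 for miR-132-5p, -2.08 ± 0.26 for miR-212-3p and -2.70 ± 0.35 for miR-212-5p, with edgeR adjusted p between 5.6e-06 and 8.3e-05. Against PDGF-BB cells they were -2.90 ± 0.21, -3.14 ± 0.31, -3.03 ± 0.24 and -3.05 ± 0.33 in the same order. The falls of both miR-132 arms thus grew by more than 1.5-fold on the linear scale.

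Edited replicates 2 and 3 were the deepest libraries and had the lowest levels of all 4 arms. Edited replicate 1, at 3149262 counts, lay within the range of totals of the differentiated libraries, and its miR-132-3p level of 118 CPM was below their 146 to 243 CPM. The part of depth in the levels of the arms was not tested.

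Ratios between arms within one library need no scaling between libraries. miR-132-3p made up 82.9 ± 0.399% of the summed CPM of the 4 arms in edited, 80.9 ± 0.887% in PDGF-BB and 80.8 ± 1.56% in differentiated cells (SD, n = 3 each). The summed CPM itself was 77.6 ± 56.0 in edited, 361 ± 18.2 in PDGF-BB and 230.0 ± 62.0 in differentiated cells.

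The ratio of miR-132-3p to miR-212-3p, the arms that share a seed, was 19.8, 17.8 and 16.6 in edited, 18.0, 17.2 and 13.4 in PDGF-BB and 25.3, 16.8 and 16.0 in differentiated libraries. The groups overlapped, and the permutation test over the 9 libraries did not pass (exact p = 0.639 over 1680 arrangements, Benjamini-Hochberg adjusted over 4 ratios 0.639). The mean log2 ratios were 4.17 ± 0.13 in edited, 4.01 ± 0.23 in PDGF-BB and 4.25 ± 0.36 in differentiated cells (SD, n = 3 each). The ratio of miR-132-3p to miR-132-5p, the arms of one hairpin, had mean log2 values of 3.10 ± 0.14 in edited, 2.94 ± 0.32 in PDGF-BB and 2.92 ± 0.14 in differentiated cells (exact permutation p = 0.550, adjusted 0.639). That of miR-132-5p to miR-212-5p had mean log2 values of 1.64 ± 0.25 in edited, 1.63 ± 0.60 in PDGF-BB and 1.26 ± 0.21 in differentiated cells (exact permutation p = 0.446, adjusted 0.639).

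The arms of the miR-212 hairpin gave the ratio that varied most with the group. miR-212-3p over miR-212-5p was 1.48, 1.42 and 1.56 in edited, 1.56, 1.44 and 1.43 in PDGF-BB and 0.744, 1.30 and 0.907 in differentiated libraries. The differentiated libraries lay below all others, and the exact permutation p of 0.0357 did not pass after adjustment over the 4 ratios (0.143). In differentiated libraries it rests on 14 to 30 counts of miR-212-3p and 19 to 23 of miR-212-5p.

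**Figure D4:**
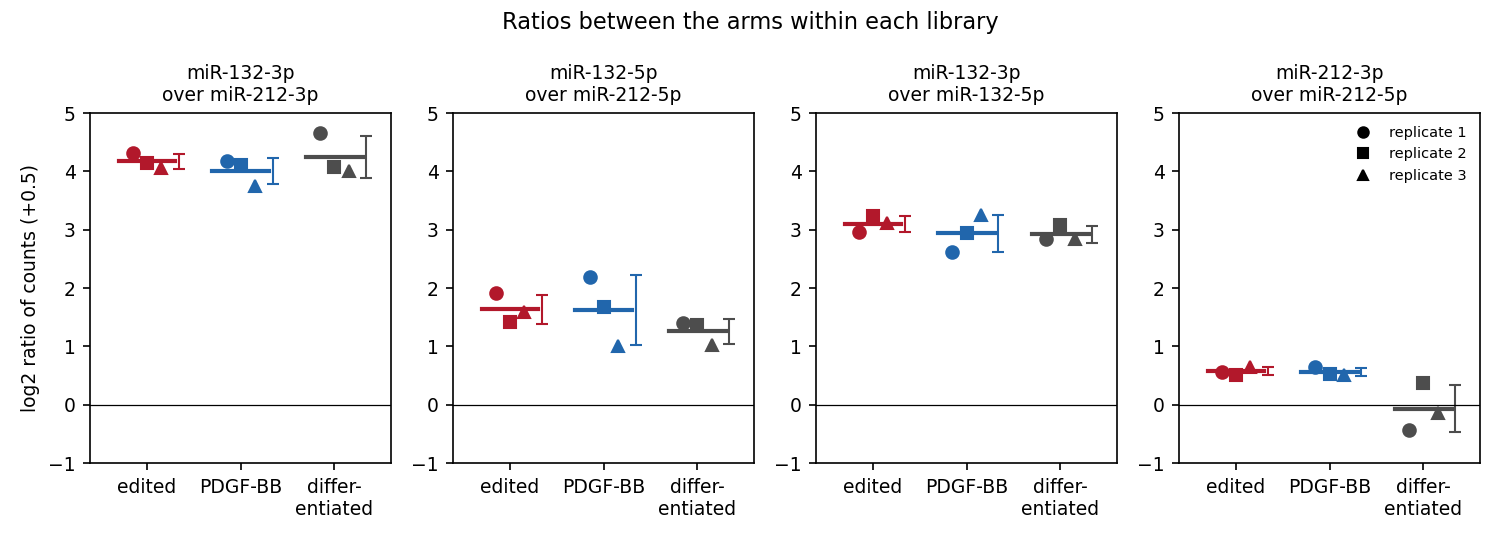
Log2 ratio of counts between arms (vertical axis, 0.5 added to each count) in each library of edited, PDGF-BB and differentiated cells, with means and SD (n = 3). In the right panel the differentiated libraries lie below the others, at -0.43 to 0.38 against 0.50 to 0.64 in edited and 0.52 to 0.65 in PDGF-BB libraries.

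To place the cluster among other miRNAs, the pattern of each tested miRNA over the 9 libraries was centred and compared with the mean pattern of the 4 arms. The measure is the root mean square difference in log2 CPM, which is 0 for an identical pattern. It was 0.087 to 0.217 for the arms themselves, which are part of that mean, and had a median of 1.13 over the 300 other miRNAs. The 5 most alike were miR-326-3p (0.269), miR-221-5p (0.358), miR-222-3p (0.406) and, a little further off, miR-125b-1-3p (0.474) and miR-760-3p (0.475). With library totals the same 5 were found.

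miR-326-3p averaged 2.39 ± 1.37 CPM in edited, 12.4 ± 1.57 in PDGF-BB and 8.07 ± 3.05 in differentiated cells, a level close to that of miR-212-5p. miR-222-3p, known to promote proliferation of smooth muscle cells and encoded beside miR-221, averaged 111 ± 11.8 CPM in edited, 580.0 ± 92.7 in PDGF-BB and 293 ± 76.8 in differentiated cells. It passed the test in PDGF-BB against differentiated cells (log2 fold change 0.99 ± 0.20, edgeR adjusted p = 0.0131). miR-125b-1-3p, the passenger strand of a hairpin of miR-125b, passed there too (0.62 ± 0.15, edgeR adjusted p = 0.0324). miR-326-3p (edgeR adjusted p = 0.312), miR-221-5p (0.221) and miR-760-3p (0.411) did not pass there. These values come from the same libraries that chose the 5, and whether they differ from those of the cluster was not tested. The 5 were chosen for their pattern over all 9 libraries. Their differences between the groups, in edited and in PDGF-BB cells, are therefore part of the choice and are not counted as results.

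**Figure D5:**
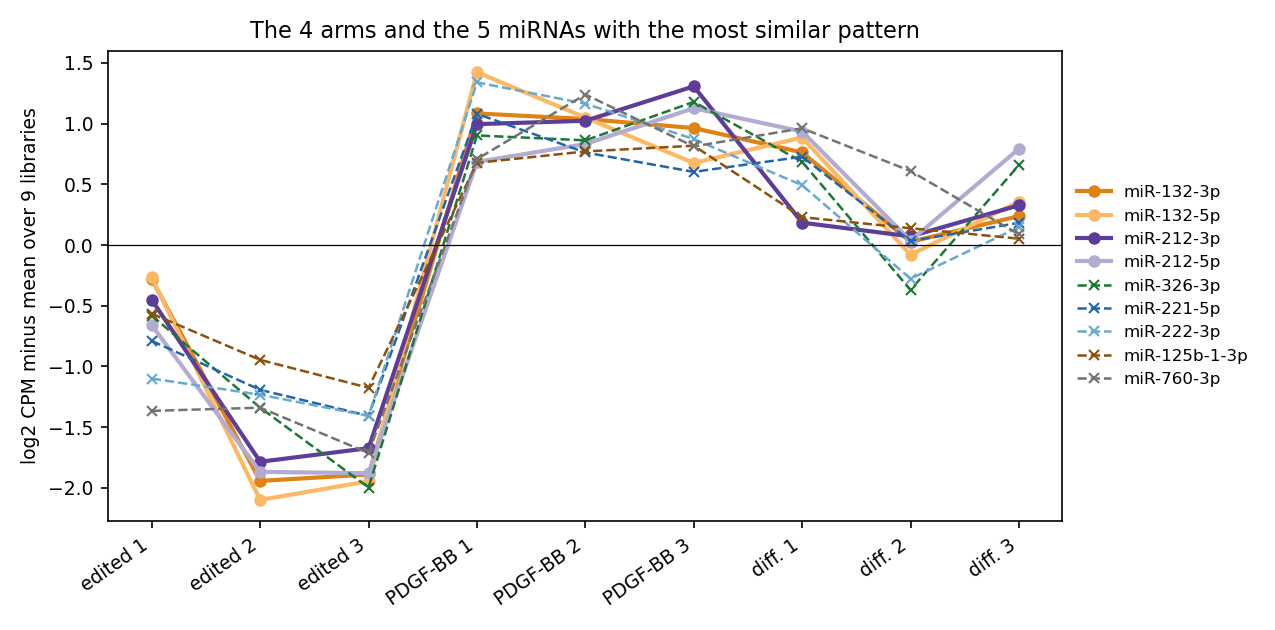
Log2 CPM minus its mean over the 9 libraries (vertical axis) for the 4 arms (solid lines) and the 5 miRNAs of most similar pattern (dashed lines), by library (horizontal axis). The 4 solid lines run together, low in edited libraries and lowest in edited replicates 2 and 3.

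Other miRNAs known to rise with growth factors, injury or inflammation were taken as a list of every arm of miR-21, miR-31a, miR-146a, miR-146b, miR-147, miR-155, miR-221 and miR-222. It shares miR-221-5p and miR-222-3p with the miRNAs chosen above for their likeness to the cluster. Both are counted below among the falls in edited cells, and miR-222-3p among the rises in PDGF-BB cells. The list's counts are thus not separate from that choice for these arms. This list and the contractile list below were also chosen with earlier results of these data known. The counts of both lists are therefore descriptive and no independent support. In edited against differentiated cells 3 of its 14 tested arms rose and 9 fell, with a median log2 fold change of -0.60, where 98 of all 304 tested miRNAs rose and 82 fell. Against PDGF-BB cells 2 rose and 11 fell, with a median of -0.87, where 85 of all rose and 94 fell. In PDGF-BB against differentiated cells 6 rose and 0 of the 14 fell, with a median of 0.49, where 22 of all rose and 9 fell. The 6 were both arms of miR-146b, both arms of miR-222, miR-221-3p and miR-147. As miR-221 and miR-222 are encoded beside each other, the 6 arms do not stand for 6 separate loci. The medians of all tested miRNAs in these comparisons are given above, near 0. With library totals the list had 3 rises and 6 falls (151 and 40 over all miRNAs) in edited against differentiated cells, 2 and 10 (124 and 52) in edited against PDGF-BB cells, and 7 and 0 (24 and 2) in PDGF-BB against differentiated cells. Of the abundant arms, miR-221-3p had 2575 ± 224 CPM in edited, 10492 ± 974 in PDGF-BB and 5207 ± 1247 in differentiated cells, the same order of groups as the cluster. miR-146b-5p had another order, at 13580 ± 5321 CPM in edited, 5036 ± 660 in PDGF-BB and 1955 ± 601 in differentiated cells. The other abundant arms of the list stayed closer between PDGF-BB and differentiated cells, where none of them passed. miR-21-5p had 79455 ± 17127 CPM in edited, 119580 ± 11860 in PDGF-BB and 139351 ± 15509 in differentiated cells. For miR-31a-5p the levels were 27540.1 ± 1184 CPM in edited, 41933 ± 2355 in PDGF-BB and 38172 ± 2143 in differentiated cells, and for miR-146a-5p 1043 ± 765 CPM in edited, 14390.5 ± 1146 in PDGF-BB and 14603 ± 772 in differentiated cells.

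The contractile list, the arms of miR-1, miR-133a, miR-133b, miR-143 and miR-145, differed from the cluster in order, with miR-143-3p at 45710 ± 12611 CPM in edited, 148997 ± 20630 in PDGF-BB and 220236 ± 17802 in differentiated cells. Of its 10 arms 7 had counts and 5 were tested, miR-1-3p and both arms of miR-143 and miR-145, with no arm of miR-133a or miR-133b. Of its 5 tested arms 5 fell in edited against differentiated cells, where 27.0% of all tested miRNAs fell, and 5 against PDGF-BB cells, where 30.9% fell. In PDGF-BB against differentiated cells 3 fell, or 1 with library totals, where 9 of all 304 fell, or 2 with library totals. miR-145-5p averaged 2664 ± 438 CPM in edited, 7068 ± 1059 in PDGF-BB and 10852 ± 361 in differentiated cells. Those 3 falls were miR-145-5p, miR-145-3p, at 652 ± 82.0 CPM in PDGF-BB and 1073 ± 75.1 in differentiated cells, and miR-143-5p, at 1784 ± 282 and 2803 ± 426 CPM in PDGF-BB and differentiated cells. miR-143-3p (log2 fold change -0.56 ± 0.18, edgeR adjusted p = 0.0928) and miR-1-3p (0.277) did not pass in that comparison.

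miR-132 and miR-212 are also abundant in neurons and in endothelium, so markers of other cell types were summed in each library. The 2 arms of the endothelial miR-126a summed to between 2905 and 3346 CPM in edited, 1791 and 1895 CPM in PDGF-BB and 1760 and 2145 CPM in differentiated libraries. Their sums in edited libraries lay above all others, while those of PDGF-BB and differentiated libraries overlapped. Of 9 neural marker arms 6 had counts in each group, and they summed to between 895 and 1093 CPM in edited, 826 and 887 CPM in PDGF-BB and 766 and 889.6 CPM in differentiated libraries, while both arms of the neuronal miR-124 and miR-137-3p had no count in any library. Most of that sum was miR-128-3p, at 688 to 886 CPM in edited, 736 to 808 CPM in PDGF-BB and 684 to 812 CPM in differentiated libraries. miR-9a-5p, another neural marker, had 129 to 135 CPM in edited, 21.8 to 27.0 CPM in PDGF-BB and 28.5 to 35.7 CPM in differentiated libraries, and miR-9a-3p was also highest in edited libraries. miR-129-5p went the other way against PDGF-BB libraries, at 0.827 to 1.70 CPM in edited and 6.85 to 9.26 CPM in PDGF-BB libraries. miR-138-5p and miR-219a-5p overlapped between edited libraries and each other group. The 7 blood markers summed to between 76.1 and 98.4 CPM in edited, 49.0 and 64.7 CPM in PDGF-BB and 47.6 and 72.8 CPM in differentiated libraries. The 6 epithelial markers summed to between 20.2 and 39.5 CPM in edited, 35.9 and 49.6 CPM in PDGF-BB and 73.7 and 102 CPM in differentiated libraries. These members went both ways, with miR-429 at 0.236 to 1.38 CPM in edited and 17.1 to 20.6 CPM in differentiated libraries, and miR-141-3p at 9.41 to 23.3 CPM in edited and 1.99 to 7.03 CPM in differentiated libraries. miR-200a-3p and miR-200b-3p lay lower and miR-200c-3p higher in each edited than in each differentiated library. The part of RNA of any of these cell types in the levels of the cluster was not tested.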

How the data were processed

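Per the labels' protocols, a QIAseq small RNA kit and a NextSeq gave single reads of 75 nt, with 30 M reads planned per sample. Rnor_6.0 was the build named in the submitters' processing notes, with aligner, counting tool and use of molecular identifiers not given in the sources used here. Deposited values are the authors' raw counts per mature miRNA, whole numbers with no normalization. Titles gave groups and matched the table's columns.

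The main test was the quasi-likelihood F test of edgeR 4.0.16 (R 4.3.3) on all 9 libraries, with 1 mean for each group, TMM scaling and edgeR's low-count filter (minimum 10 counts). P-values were adjusted by Benjamini-Hochberg over 304 miRNAs, and called at 0.05 whatever the fold. The SE of a log2 fold change is its size over the root of F. Ratios of counts (0.5 added) were compared by an exact permutation test of F among the 3 groups, whose smallest possible p is 0.00357. Patterns used log2 CPM with a prior count of 2. Scripts were tested on simulated data. Alternatives were library totals, RLE factors, DESeq2 1.42.0, no filter, the compared libraries alone, a replicate block and each library left out.

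The members and lists were chosen with earlier results of these data known. Besides the 4 arms, the 5 miRNAs of most similar pattern and examples of over 1000 CPM from the lists are named. Replicates differed by more than sampling noise (chi-square per degree of freedom 15.0 to 576). All 4 arms matched RefSeq sequences by name.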

Additional observations from a re-analysis of the deposited data

How the results depend on the processing

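The 4 falls of edited against PDGF-BB cells, and those of edited against differentiated cells except for miR-132-5p, kept their direction and passed in each of 6 other settings and 9 fits that leave out 1 library. For miR-132-5p in edited against differentiated cells the log2 fold change without 1 library was between -2.50 and -1.37, and 3 to 4 arms passed. In PDGF-BB against differentiated cells the number of arms passed was 2 with the compared libraries alone (miR-132-3p at 0.68, miR-212-3p at 1.00), in place of 0. In that fit 42 of 275 tested miRNAs passed, 27 higher and 15 lower. Without 1 library the number of arms passed was 0 to 2, with miR-132-3p at 0.49 to 0.92 and miR-212-3p at 0.85 to 1.02. The count over all miRNAs there, 31, was 48 with DESeq2 and 3 to 53 without 1 library. It was 3 without differentiated replicate 3, 12 without differentiated replicate 2 or PDGF-BB replicate 1 or 2, 16 without differentiated replicate 1 and 18 without PDGF-BB replicate 3. The cause was not tested. No ratio passed with 2 added to each count or without 1 library (adjusted p from 0.10 up).

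Equal replicate numbers are not said to share a source, and 4 of 9 same-numbered pairs deviated together (correlation over 0.1), as did 4 of 18 unlike-numbered pairs, among them the highest (0.523, differentiated replicate 2 with PDGF-BB replicate 3). A library correlated best with its own number in 11 of 18 checks. The fit with a replicate block passed 4, 4 and 0 arms in the order of the comparisons above, and 182, 181 and 29 miRNAs. Counts of 12 to 76 limit the miR-212 arms.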
